A study of Sus scrofa with 37 samples.

Results

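The genes of 3 islet hormones other than insulin were followed in pig pancreas and in cultured pig islets: GCG (ENSSSCG00000015895), SST (ENSSSCG00000033815) and PPY (ENSSSCG00000017368). They were chosen by name, as the rows of these identifiers in the count tables of both tissues, and are 3 of 25880 genes counted. A pancreas library was made from 50 mg of duodenal lobe tissue removed at retrieval of the organ, and an islet library from purified islets kept floating in culture for 7 days. Each sample carried an islet density label, High or Low, given for that sample rather than for the animal. The counted libraries were, in pancreas, 8 with a High and 9 with a Low label and, in islets, 8 with a High label, 9 with a Low label and 1 (12AS51) with N/A in its place. Both tissues were counted in 16 animals. Of the 16 animals that have a density label on both tissues and a counted pancreas, 11 had the same label on both and 5 had different ones. Islets of 15LS27 and of 15LS30 were not analysed here. Strain, age and the way of scoring density do not appear in the labels.

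Glucagon, made by alpha cells, raises blood glucose by acting on the liver, and the same precursor gives the glucagon-like peptides when it is cut by another convertase. Somatostatin, made by delta cells, acts locally on its neighbours and restrains the release of both insulin and glucagon. Pancreatic polypeptide comes from PP cells, which are concentrated in the part of the pancreas that develops from the ventral bud, and it lowers exocrine secretion and appetite. PPY is a relative of PYY and NPY, and in the RefSeq annotation of Sscrofa11.1 it adjoins PYY. PYY matched no identifier in the count tables, and the sources used here do not state how its reads were counted. Levels are given as CPM, the count of a gene per 1000000 counts of its library. Transcript lengths were not used, so the level of one hormone gene is not ranked against another, and their ratios are compared only between libraries.

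Some libraries stand apart. The islet libraries held 3237653 to 6702589 counts and the High pancreas libraries 1855075 to 3922006, but 7 of the 9 Low pancreas libraries held only 265000 to 536014 (called shallow below). The shallow ones are Low replicate 1 (animal 12FS135) and all 6 animals whose code begins with 14, and 10 genes of acinar cells, which make digestive enzymes, took 1.03% to 2.31% of their counts. The same genes took 13.8% to 22.3% in the High pancreas libraries, 10.1% in Low replicate 2 (12FS161), 7.93% in Low replicate 9 (15LS30) and at most 0.0420% in islets. Depth, acinar share and Low label therefore overlap almost completely in pancreas and cannot be told apart. The 12AS51 islets had INS, insulin, at 2086 CPM against 18850 to 61440 CPM in the 17 islet libraries with a density label, and 1 gene took 43.5% of their counts. The source name of the 12AS51 and 11KS28 islets reads pancreas against their titles, and acinar genes took 0.000477% and 0.00186% of their counts. In both tissues, fewer cells of a type and less RNA per cell cannot be told apart.

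GCG was far higher in islets than in pancreas. Its lowest, median and highest values were 90.8, 283.8 and 509.4 CPM in High pancreas, 23.2, 52.5 and 1925 CPM in Low pancreas, 4291, 7951 and 17750 CPM in High islets, and 4426, 10640 and 17310 CPM in Low islets. The 12AS51 islets held 490.0 CPM. With that exception, every islet library was above every pancreas library, and 15LS30 was the pancreas library nearest to the islets.

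SST was also higher in islets than in pancreas, at other levels. It stood at 6.10, 10.8 and 24.5 CPM (lowest, median, highest) in High pancreas, 3.37, 13.9 and 90.7 CPM in Low pancreas, 99.5, 453.5 and 1224 CPM in High islets and 191, 922.5 and 1476 CPM in Low islets. The 12AS51 islets held 29.5 CPM. The 17 islet libraries with a density label were all above the pancreas libraries, and the lowest of them, High replicate 6 (15AS28), was close to the 15LS30 pancreas.

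PPY was the least separated of the 3 genes. It stood at 0, 4.54 and 34.6 CPM in High pancreas, 0, 3.73 and 22.6 CPM in Low pancreas, 20.4, 78.0 and 119.8 CPM in High islets and 42.5, 124.0 and 531 CPM in Low islets, with 1.64 CPM in the 12AS51 islets. Here 16 of 18 islet libraries exceeded every pancreas library. The other two were 12AS51 and 15AS28.

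**Figure D1:**
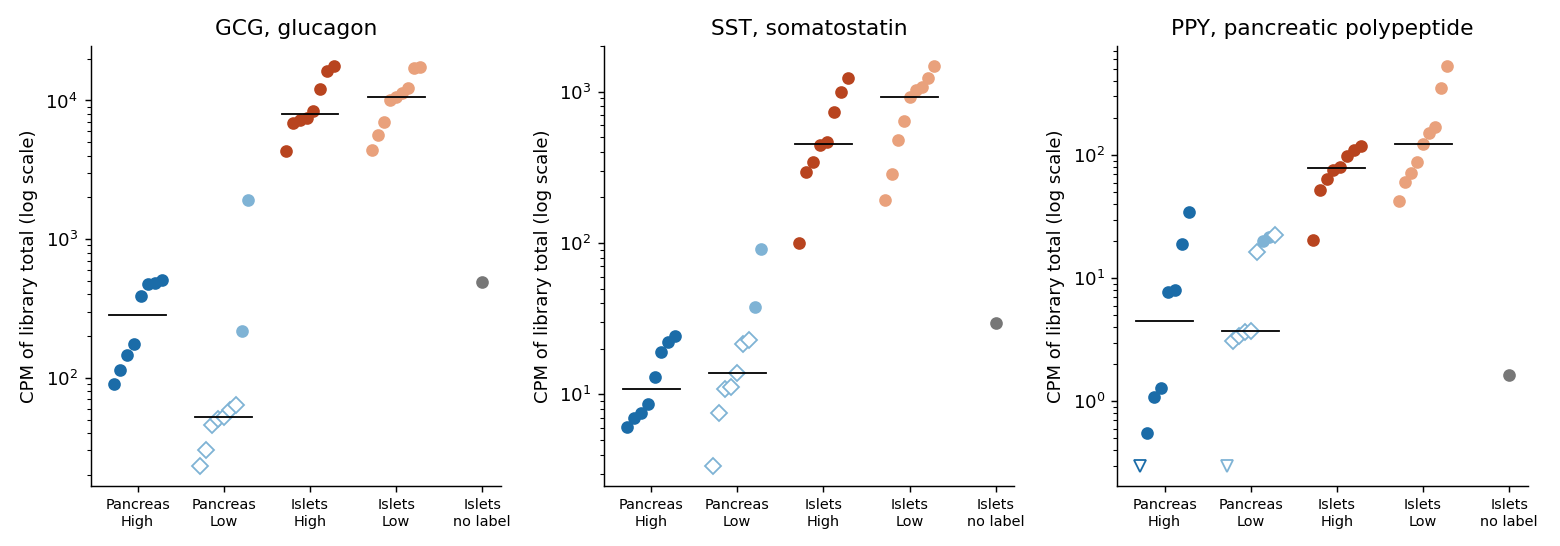
GCG, SST and PPY in every library, as CPM of the library total on log axes, by tissue and density label. Each point is 1 library, open diamonds are the pancreas libraries under 1000000 counts, open triangles at the lower edge are libraries with 0 counts, and bars are group medians. Islets lie above pancreas apart from the unlabelled 12AS51 islets for each gene and the 15AS28 islets for PPY, and PPY in pancreas runs from 0 to 34.6 CPM.

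The first comparison set the 18 islet libraries against the 17 pancreas libraries. All 3 hormone genes were higher in islets: on the log2 scale the difference was 4.75 for GCG (adjusted p = 5.5e-11, SE 0.49), 4.55 for SST (adjusted p = 2.3e-14, SE 0.36) and 2.96 for PPY (adjusted p = 1.0e-06, SE 0.48), by the quasi-likelihood test of edgeR, Benjamini-Hochberg adjusted over all genes. Of the 12339 genes tested, 62.6% passed this test, 31.1% as higher and 31.5% as lower in islets, and the median change over all genes was −0.01. A gene that passes is therefore common in this comparison. With counts scaled by column totals in place of TMM the median of all genes moved to 0.47, 71.0% of the called genes were higher in islets where the TMM fit gave 49.6%, and GCG, SST and PPY stood at 5.08, 5.03 and 3.57.

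The labels name the animal, so the tissues can also be compared within the 16 animals. GCG was higher in the islets of 16 of 16 animals, by a mean of 5.97 (SD 1.98) on the log2 scale, and the animals ranged from 2.11 to 8.31. SST was higher in 16 of 16, by 5.22 (SD 1.26). PPY was higher in 15 of 16, by 4.13 (SD 3.0), and the exception was 12AS51, with a difference of −4.34 between 34.6 CPM in pancreas, the highest of any pancreas library, and 1.64 CPM in islets. An exact sign-flip permutation test over the animals gave p = 3.052e-05 for GCG and for SST, the smallest it can give, and p = 0.000275 for PPY (adjusted over 6 measures, 9.16e-05 and 0.000549). In the 9 animals whose pancreas library was not shallow the mean differences were 4.53, 4.61 and 3.59.

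**Figure D2:**
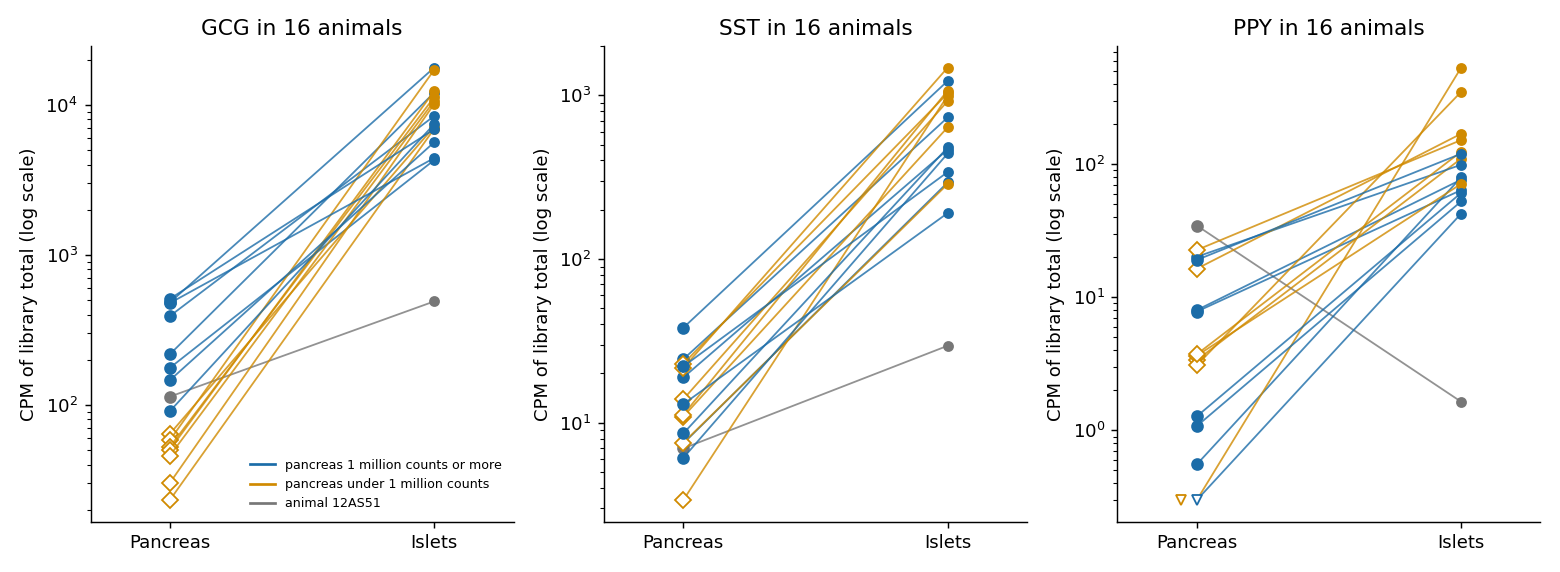
GCG, SST and PPY in the pancreas and islets of the 16 animals with both tissues, as CPM on log axes, with a line for each animal. Blue lines are animals with a deep pancreas library, orange ones (open diamonds) those with a shallow one, grey is 12AS51, and triangles mark 0 counts. Lines rise in 16, 16 and 15 of 16 animals, and the 1 that falls is PPY in 12AS51.

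Each hormone was also set against a common endocrine measure, the summed counts of 7 secretory granule genes that all islet endocrine cells use (CHGA, CHGB, SCG2, SCG3, SCG5, VGF and PCSK1N). GCG made 0.531 counts per count of these genes in the median pancreas library and 0.455 in the median islet library, a log2 difference of −0.48 (SE 0.33) that did not pass (permutation p = 0.156, adjusted p = 0.234 over the 18 ratio tests). SST went from 0.0563 to 0.0325 (−1.35, SE 0.37, permutation p = 0.00108, adjusted p = 0.00648). PPY went from 0.0380 to 0.00459 (−2.45, SE 0.65, permutation p = 0.00067, adjusted p = 0.00648). SST and PPY were thus lower relative to the granule genes in islets than in pancreas. Without the shallow libraries the differences were −0.95 for SST (adjusted p = 0.120) and −1.75 for PPY (adjusted p = 0.0974), which no longer passed, and −1.05 for GCG (adjusted p = 0.0236), which then did.

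The ratio of GCG to SST counts had a median of 15.5 in islets and 14.5 in pancreas. The log2 difference was 0.87 (SE 0.43, permutation p = 0.0487, adjusted p = 0.120). It was −0.10 without the shallow libraries (adjusted p = 0.842), and the 10 deep pancreas libraries, at 5.69 to 36.4 with a median of 20.1, covered much of the islet range of 7.21 to 164.6. Within animals the mean difference was 0.75 over 16 animals (exact sign-flip permutation p = 0.0402, adjusted p = 0.0483 over 6 measures) and −0.09 over the 9 with a deep pancreas library (exact sign-flip permutation p = 0.606). The ratio was higher in islets in 4 of these 9 and in 6 of 7 animals with a shallow library (all but 12FS135). GCG to PPY was higher in islets, with a median of 104.8 against 13.0, by 1.97 (SE 0.76, permutation p = 0.0132, adjusted p = 0.0474). The call was lost in 24 of 35 fits that left out 1 library, with adjusted p up to 0.0883, and without the shallow libraries (0.70, adjusted p = 0.501). SST to PPY differed by 1.10 (SE 0.60, permutation p = 0.0699, adjusted p = 0.140).

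**Figure D3:**
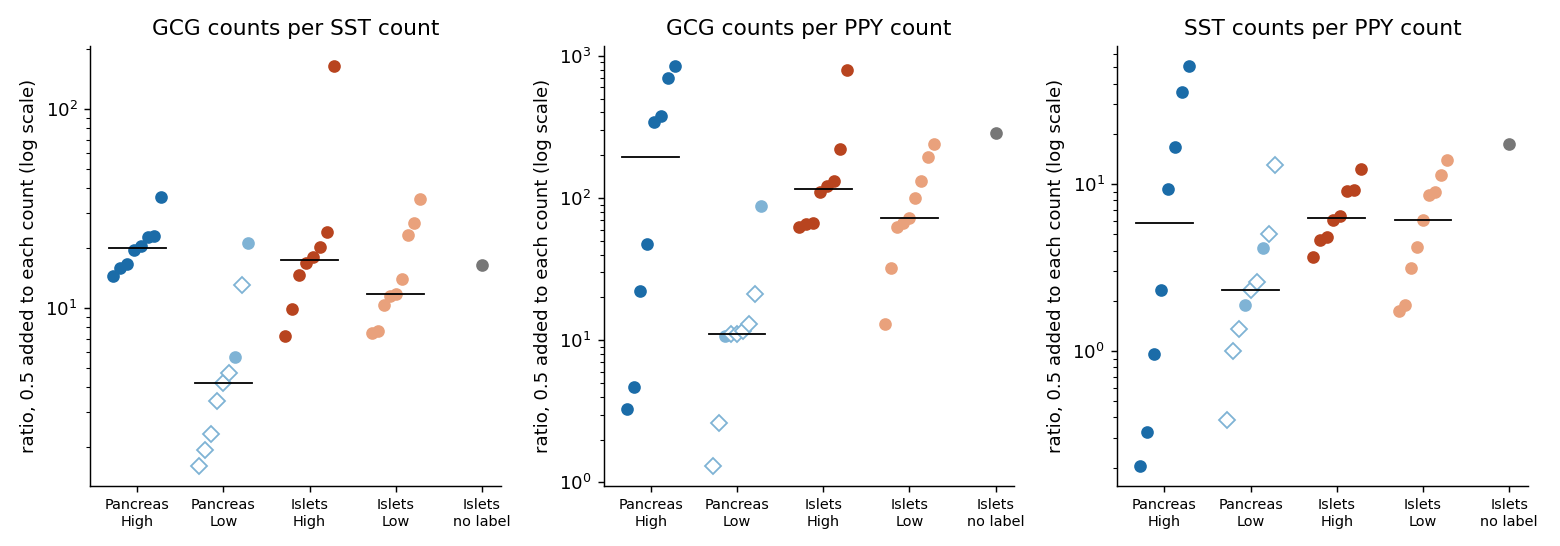
Ratios of the counts of the 3 genes in each library, with 0.5 added to each count, on log axes, by tissue and density label. Each point is 1 library, open diamonds are shallow pancreas libraries and bars are medians. The shallow libraries lie low in GCG to SST, the 15AS28 islets stand at 164.6, and GCG to PPY in High pancreas runs from 3.27 up to points that rest on 0 to 2 PPY counts, of which the 849 of 16IS5 is set by the 0.5 added to a count of 0.

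Among the 10 deep pancreas libraries, PPY took 2 ranges with a gap between them. It stood at 34.6 CPM in High replicate 2 (12AS51), 21.7 in Low replicate 9 (15LS30), 20.1 in Low replicate 2 (12FS161), 19.1 in High replicate 6 (15LS29), 8.01 in High replicate 1 (11KS28) and 7.80 in High replicate 3 (12FS131). It stood at 1.27 CPM in High replicate 5 (15LS26), 1.08 in High replicate 7 (16CS60), 0.556 in High replicate 4 (12FS133) and 0 in High replicate 8 (16IS5), where a count of 0 allows up to 1.03 CPM. The values of 16CS60 and 12FS133 rest on 2 counts each, under the floor of 3 counts. In those 4 pieces GCG stood at 477.3, 509.4, 481.8 and 146.0 CPM, and SST at 13.0, 22.1, 24.5 and 8.61 CPM. The other 6 deep libraries held 90.8 to 1925 CPM of GCG and 6.10 to 90.7 CPM of SST. Both genes were toward the low end in 16IS5, which also had the lowest granule gene level of the 10 (155.6 CPM). Over the 7 deep libraries with more than 3 PPY counts the ratio of GCG to PPY ran from 3.27 in 12AS51 to 340.5 in 15LS26, which is 104-fold. On the same measure it was 693.8 in 12FS133 and 378.2 in 16CS60, which hold 2 PPY counts each. Their ratios of raw counts, with nothing added, were 867 and 472.5. The exact Poisson intervals of these raw ratios were 240 to 7159 and 130.8 to 3902. In 16IS5, with 0 PPY counts, the raw ratio was at least 141 against the floor of 3 counts. GCG to SST spanned 6.39-fold over all 10.

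The islets of the same 4 animals did contain PPY. It stood at 60.9 CPM in 15LS26, 52.5 in 16CS60, 79.6 in 12FS133 and 42.5 in 16IS5, against 119.8 in 15LS29, 99.0 in 12FS161, 76.5 in 11KS28 and 63.9 in 12FS131. The ninth animal with a deep pancreas library, 12AS51, held 34.6 CPM in the piece and 1.64 CPM in its islets. Apart from it the ranges overlap. Over all 9 animals the PPY levels of the piece and of the islets gave Pearson's r of −0.27 (exact permutation p = 0.563) and Spearman's rho of 0.22 (exact permutation p = 0.581), and r was −0.35 without the 2 animals farthest from the median. Adjusted over the 15 relations computed, these were p = 0.841 and p = 0.762 by the same exact permutation test. The result rests on 12AS51: over the other 8 animals r was 0.80 (exact permutation p = 0.0167) and rho 0.74 (exact permutation p = 0.0458), both unadjusted, and r was 0.59 when the 2 farthest of these were left out as well. The labels do not give the position of each piece within the lobe.

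Among pancreas pieces, GCG and SST moved together. Over the 10 deep libraries r was 0.86 (permutation p = 0.00194, adjusted 0.0145) and rho 0.84 (permutation p = 0.00358, adjusted 0.0277), and r was 0.62 without the 2 libraries farthest from the median GCG. The summed granule genes ran from 155.6 to 4251 CPM in these libraries, and 15LS30 held the highest value of both GCG and SST. The part of endocrine content in this relation was not tested. PPY followed neither, with r = −0.08 against GCG and r = 0.13 against SST (permutation p = 0.833 and p = 0.729). In the 7 shallow libraries GCG rested on 8 to 27 counts, SST on 1 to 7 and PPY on 0 to 6, and no relation passed there.

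In islets the closest pair was SST and PPY. Over 18 libraries r was 0.84 (permutation p = 7e-05, adjusted 0.00105) and rho 0.66 (permutation p = 0.0037, adjusted 0.0277). The 12AS51 islets are lowest in both genes. Without them r was 0.67 and rho 0.59 (permutation p = 0.0034 and p = 0.014, 17 libraries), and r was 0.49 when the 2 farthest libraries were left out as well. Within the 6 islet libraries of animals whose code begins with 14, r was 0.39 (exact permutation p = 0.454). Within the other 12, which include 12AS51, it was 0.88 (permutation p = 0.00037), 0.57 without the 2 farthest, and 0.78 without 12AS51 (permutation p = 0.0047). The difference between these sets was not tested. GCG and SST gave r = 0.70 over 18 libraries, which rested on 12AS51 (0.30 without it, permutation p = 0.240).

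**Figure D4:**
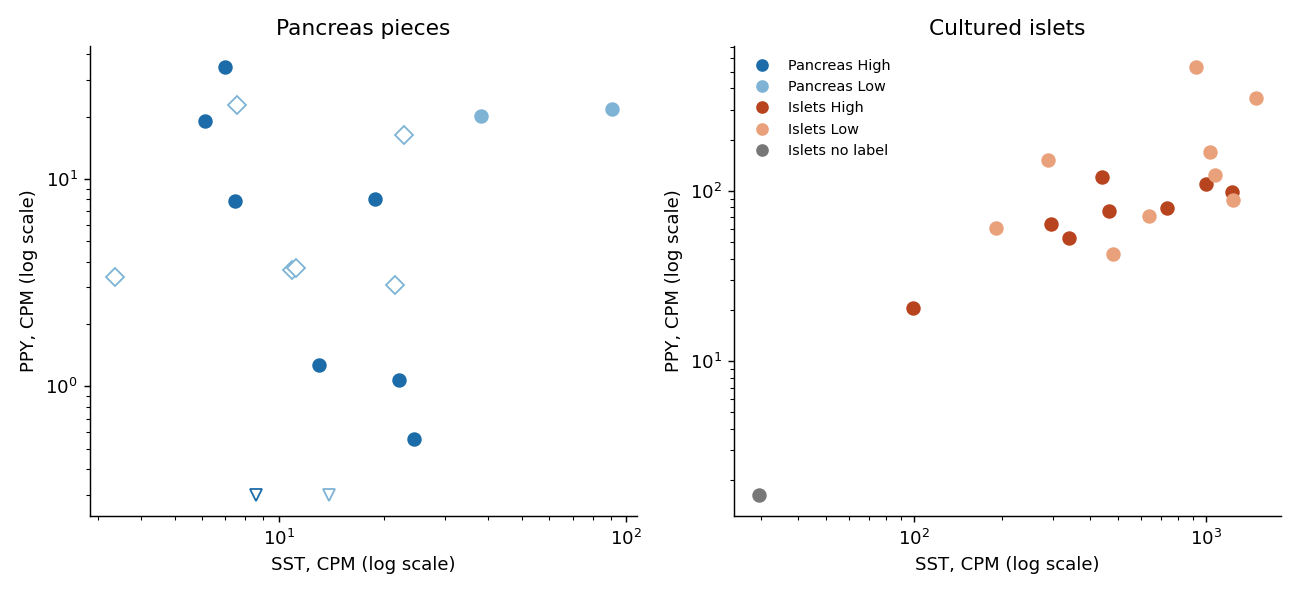
PPY against SST in pancreas pieces (left) and cultured islets (right), in CPM on log axes, with 1 point per library coloured by tissue and density label. Open diamonds are shallow libraries and triangles at the lower edge are libraries with 0 PPY counts. In islets the points rise together (r = 0.67 without the grey 12AS51 point), and in the deep pancreas libraries they do not (r = 0.13).

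Among GCG, SST and PPY, GCG was the steadiest across the 17 islet libraries with a density label. Its range from lowest to highest was 4.14-fold, against 14.8-fold for SST and 26.1-fold for PPY. INS had a narrower range than GCG in the same libraries, at 3.26-fold. At the upper end of PPY, Low replicate 5 (14HS26) held 531 CPM and Low replicate 4 (14ES73) 349 CPM, and the next library, Low replicate 7 (14HS7), held 169 CPM. In 14HS26 the ratio of GCG to PPY was 13.1, the lowest of all islets, and in 14ES73 it was 32.3. At the other end, High replicate 6 (15AS28) combined 16400 CPM of GCG with 99.5 CPM of SST and 20.4 CPM of PPY. Its GCG to SST ratio of 164.6 was far above the 7.21 to 35.4 of the other labelled islets, and its GCG to PPY ratio was 798. Its depth (3237653 counts) was the lowest of the islets but its SST value rests on 322 counts. In this library 1 gene took 25.7% of the counts, against 6.14% to 13.0% in the other labelled islets. Its INS, at 18850 CPM, was the lowest of the labelled islets. How this composition bears on its ratios was not tested. Against insulin, GCG stood at 0.0886 to 0.870 counts per INS count in the labelled islets and at 0.154 to 1.71 in the pancreas libraries.

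The second comparison asked whether the hormone genes followed the density label in pancreas. GCG was below the lowest High library (90.8 CPM) in 7 of 9 Low libraries, all of them shallow ones at 23.2 to 64.1 CPM. The other two Low libraries stood at 217.5 (12FS161) and 1925 CPM (15LS30), so the groups overlap. In the edgeR fit GCG differed by 0.49 (SE 0.64, adjusted p = 0.559), and without 15LS30 by 1.97 (adjusted p = 0.000461): 1 library decides this value. On log2 CPM from column totals the difference was 1.57 (exact permutation p = 0.0577), and 2.14 without 15LS30 (exact permutation p = 0.00171). SST differed by −0.94 (SE 0.37, adjusted p = 0.0480), lower in High pancreas, with overlapping groups, and the call was lost in 8 of 17 fits that left out 1 library and under RLE scaling (adjusted p = 0.0540). PPY differed by −0.17 (SE 0.72, adjusted p = 0.872). In this comparison 40.3% of 10634 genes passed, 18.8% as higher and 21.5% as lower in High pancreas, so 1 of 3 hormone genes is near the background. Under column totals 22.4% of the called genes were higher in place of 46.6%. Without the shallow libraries, which leaves 8 High and 2 Low, 0 genes passed by edgeR (1222 of 13217 at an unadjusted p under 0.05), 94 by DESeq2 and 0 by limma-voom. The differences were then −1.26 for GCG (adjusted p = 0.663) and −1.72 for SST (adjusted p = 0.330).

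The ratio of GCG to SST separated the pancreas labels more clearly than either gene. In High pancreas it ran from 14.5 through a median of 20.1 to 36.4. In Low pancreas it was 13.0, 5.69, 3.40, 4.71, 2.33, 1.62, 4.23, 1.93 and 21.2 in replicates 1 to 9. Only replicate 9 (15LS30) lay within the High range, and 8 of 9 lay below it. The log2 difference was 2.17 (SE 0.44, exact permutation p = 0.00074, adjusted p = 0.00648), and leaving out each library gave 1.99 to 2.45 with adjusted p of 0.0028 to 0.0131. The counts behind it are small: the 7 shallow libraries together held 111 GCG and 32 SST counts, a ratio of 3.47, against 7334 and 325 counts and a ratio of 22.6 over the 8 High libraries. Without the shallow libraries the difference was 0.89 (exact permutation p = 0.133, adjusted p = 0.218). That leaves 8 High and 2 Low libraries, too few splits for any difference to pass after adjustment, so the missing call decides nothing. By the density label of the same animal's islets the difference was 1.75 (exact permutation, adjusted p = 0.0615).

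The islets of the 6 animals whose code begins with 14 did not share the low ratio of their pancreas pieces. Their GCG to SST ratio ran from 7.52 through a median of 11.0 to 35.4, against 1.62 to 4.71 in the pieces. The 12 other islet libraries ran from 7.21 through 16.7 to 164.6. Against the granule genes, GCG was also higher in High pancreas, with a median of 0.975 against 0.453 (log2 difference 1.20, SE 0.42, exact permutation p = 0.0129, adjusted p = 0.0474). This ended in 12 of 17 fits that left out 1 library (0.97 to 1.41). Without the shallow libraries the difference was 0.32 (exact permutation, adjusted p = 0.800). With 8 High and 2 Low libraries left, that test could not pass after adjustment, so the missing call decides nothing. SST against the same genes differed by −0.97 (exact permutation p = 0.0531, adjusted p = 0.120), and GCG to PPY by 2.91 (exact permutation p = 0.0325, adjusted p = 0.0974).

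The third comparison set High against Low islets by their own label, and no hormone gene passed. GCG differed by 0.13 (SE 0.34), SST by −0.46 (SE 0.43) and PPY by −1.11 (SE 0.48), with an adjusted p of 0.999 for each. Of 12070 genes 0% passed by edgeR's test, 0 genes by DESeq2 and 0 by limma-voom, 257 had an unadjusted p under 0.05 by edgeR, and PPY was among these (p = 0.0338). PPY stood above the highest High library (119.8 CPM) in 5 of 9 Low libraries, all of them animals with a code beginning with 14, and with the leading digits of the code as a covariate the difference was 0.28. For the ratios, GCG to SST differed by 0.48 (SE 0.55, exact permutation p = 0.418), and by 0.05 without 15AS28. GCG to PPY differed by 0.79 (SE 0.61, exact permutation p = 0.229) and SST to PPY by 0.31 (SE 0.42, exact permutation p = 0.489). None passed after adjustment (0.501, 0.316 and 0.550). The standard errors of 0.43 and 0.48 limit what 8 and 9 libraries could show for SST and PPY.

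Grouping islets by the density label of the animal's pancreas changes the libraries compared. The 12AS51 islets, with the lowest SST and PPY of all islets, join the High group, and 12FS162 and 15AS28 drop out. In addition, 12FS135 and 12FS161 move from High to Low, and 15LS26 and 16IS5 move from Low to High. No hormone gene passed between the 8 and 8 libraries, at −0.54 for GCG (adjusted p = 0.557), −1.21 for SST (adjusted p = 0.361) and −1.59 for PPY (adjusted p = 0.435), or without 12AS51, at −0.49, −1.18 and −1.48 (adjusted p = 0.610, 0.292 and 0.333, edgeR). Relative to the granule genes, the differences under that label were −1.23 for SST (exact permutation p = 0.0138, adjusted p = 0.0415) and −1.53 for PPY (exact permutation p = 0.0145, adjusted p = 0.0434), lower where the pancreas was labelled High. Both calls were lost without 12AS51, at −0.98 for SST (exact permutation p = 0.0266, adjusted p = 0.0797) and −1.08 for PPY (exact permutation p = 0.0317, adjusted p = 0.0835). By the islets' own label they were −0.51 (adjusted p = 0.419) and −0.82 (adjusted p = 0.215). The test of whether the density difference itself changed with tissue gave −0.50 (SE 0.84) for GCG, 0.27 (SE 0.59) for SST and −1.05 (SE 0.95) for PPY, with adjusted p of 0.663, 0.751 and 0.385, where 39.9% of 14337 genes passed. Without the 15LS30 pancreas the GCG value was −2.15 (adjusted p = 0.00346), so that library decides this call too.

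The enzymes that turn the hormone precursors into hormones were higher in islets along with the hormone genes. Of 10 genes for prohormone processing and peptide degradation, 8 were higher in islets and 1 lower, where 31.1% and 31.5% of all genes were. Their median log2 fold change was 3.92 beside −0.01 over all genes. PCSK2, the convertase that releases glucagon from its precursor, rose by 5.08 (SE 0.44), and PCSK1, which cuts the precursor to glucagon-like peptides, by 4.86 (SE 0.51). SCG5, the chaperone of PCSK2, rose by 5.08 (SE 0.40) and CPE, which trims the exposed basic residues, by 4.91 (SE 0.46). PAM, which amidates peptides such as pancreatic polypeptide, rose by 3.16 (SE 0.36). DPP4, which inactivates incretins and trims peptides of this family, rose by 1.59 (SE 0.23), and MME, neprilysin, fell by 4.35 (SE 0.46). FURIN, at −0.20 (SE 0.16), did not pass and was positive, at 0.33, under column totals.

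Receptor genes divided. Of 13 receptors for these hormones and related peptides, 6 passed the count filter. Of these 4 were higher in islets and 2 lower, where 31.1% and 31.5% of all genes were, and the median was 1.56. GCGR, the glucagon receptor, rose by 2.45 (SE 0.63) in the TMM fit. Its mean CPM from column totals, a separate measure, was 5.74 ± 2.72 (SD, n = 18) in islets. In pancreas it was 2.24 ± 3.09 CPM (SD, n = 17), with 0 counts in 6 of the 17 libraries. GIPR, the receptor of the incretin GIP, rose by 2.46 (SE 0.39). The somatostatin receptor genes went different ways: SSTR2 rose by 1.54 (SE 0.34) and SSTR3 by 1.58 (SE 0.42), while SSTR1 fell by 1.76 (SE 0.27). GLP1R, the receptor of glucagon-like peptide-1, fell by 0.65 (SE 0.23), and the change was −0.24 with an adjusted p of 0.471 under column totals. SSTR5 averaged 0.128 ± 0.139 CPM (SD, n = 18) in islets and was not tested, and neither were the Y receptor genes NPY1R, NPY2R and NPY5R. SSTR4 and NPY4R, the latter being the main receptor of pancreatic polypeptide, matched no identifier.

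Other genes known from each hormone's cell type were less uniform than the hormones. Beside these lists, 31.1% of all genes tested were higher in islets and 31.5% lower. Among 12 alpha cell genes 9 were tested, 7 were higher in islets and 1 lower. TTR, transthyretin, rose by 4.96 (SE 0.41), the amino acid transporter SLC38A4 by 3.79 (SE 0.27) and another such transporter, SLC7A2, by 2.91 (SE 0.23), while LOXL4 fell by 1.98 (SE 0.36). Of 9 delta cell genes only 3 were tested. LEPR, the leptin receptor, rose by 2.15 (SE 0.29), while GHSR, the ghrelin receptor, fell by 1.73 (SE 0.22) and ERBB4 by 4.06 (SE 0.30). The delta cell transcription factor HHEX averaged 2.02 ± 1.5 CPM (SD, n = 18) in islets and was not tested. Of 8 PP cell genes 6 were tested, and CARTPT, a neuropeptide precursor (2.97, SE 0.55), ETV1 (2.90, SE 0.32), PTGFR (1.47, SE 0.64) and MEIS2 (1.20, SE 0.20) rose while MEIS1 (−1.84, SE 0.25) and ABCC9 (−1.69, SE 0.19) fell. The PTGFR call was lost under upper-quartile scaling (adjusted p = 0.0701). The highest adjusted p among the other genes called in this and the previous 2 paragraphs was 0.0145, for GLP1R (edgeR). Of the hormones' family relatives GIP, VIP, SCT, GHRH, ADCYAP1, CORT and NPY, none was abundant enough to test, and their summed level was at most 6.83 CPM in any islet library.

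**Figure D5:**
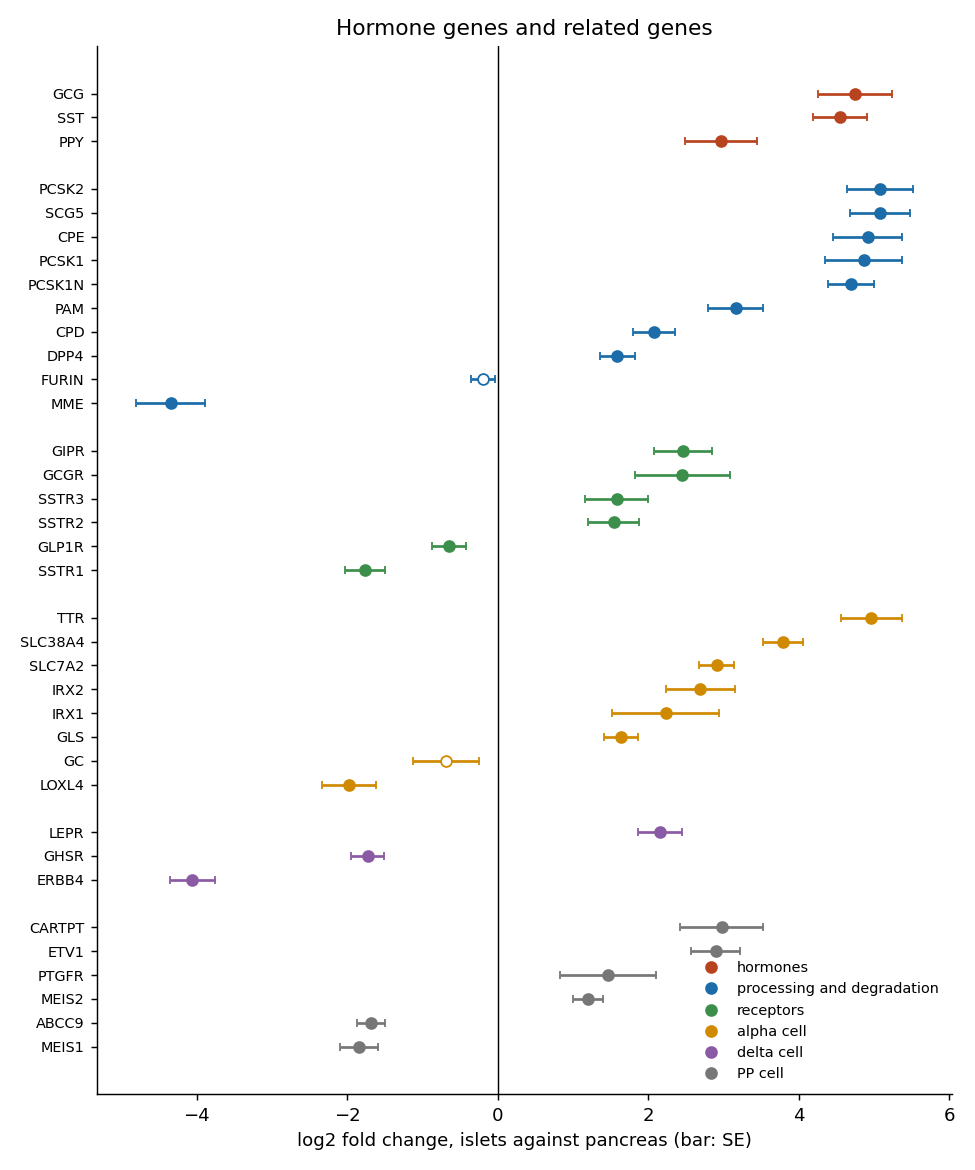
Log2 fold change of the hormone genes and of tested genes of 5 related lists between 18 islet and 17 pancreas libraries, with bars for the SE. Filled points passed edgeR's test at an adjusted p of 0.05 and open ones (FURIN, GC) did not. The hormones and convertases lie at the right, while MME and ERBB4 lie beyond −4.

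By density label in pancreas, 2 of 3 tested receptors passed, SSTR1 as higher (1.39) and SSTR2 as lower (−2.39) in High pancreas, and 3 of 9 processing genes passed, FURIN as higher (0.84) and PCSK1 (−1.99) and DPP4 (−0.99) as lower. These sit near the 40.3% of all genes. Without the shallow libraries 0 of 13217 genes passed by edgeR, so the missing calls there say nothing particular to these genes. By density label in islets, 0 of 6 receptors and 0 of 9 processing genes passed, as did 0% of all genes.

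The genes whose level ran most like each hormone across the 18 islet libraries were ranked by Spearman's rho among 9236 genes, as a description. For GCG they included TF, transferrin (0.86), ACVR1C, an activin receptor (0.86), CPQ, a carboxypeptidase (0.85), and SLC7A8, an amino acid transporter (0.85). For SST they were MAD2L1BP (0.91), PENK, the enkephalin precursor (0.83), the lysosomal protein gene SCARB2 (0.81), the receptor kinase ROS1 (0.80) and IL13RA1 (0.79). For PPY they were PANX1, a membrane channel (0.83), SLMAP (0.81), the ectonucleotidase ENTPD3 (0.81), CDH1, E-cadherin (0.80), and SUSD1 (0.79). All 18 libraries share the islet preparation and differ in depth and purity. In the 17 pancreas libraries the same pairs gave rho from −0.27 (GCG and SLC7A8) to 0.55 (PPY and SUSD1). On this measure PPY ranked 105th among the genes nearest to SST (rho 0.64), SST ranked 609th among those nearest to GCG (rho 0.40) and PPY 1965th (rho 0.22).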

How the data were processed

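RNA sequencing counts were analysed for 35 libraries of pig pancreas and islets, of 37 samples, and 1 deposited column that matched no sample was not used. The values are whole-number counts per Ensembl gene as the authors deposited them. Per the submitters' processing notes the build was susScr3 and the tools were HISAT2 2.0.2, FastQC, Subread and edgeR. The sources used here do not give strand setting or annotation. Libraries were grouped by title and density label, and tissues were paired by the animal code in the titles. Nothing in the labels says that libraries of a group were prepared separately, so p-values measure the spread between these samples. No 2 libraries of a group were identical (128 pairs). CPM used column totals (265000 to 6702589 counts), and 3 counts were the floor, covering counting error only. Genes were tested two-sided with edgeR 4.0.16 in R 4.3.3 (filterByExpr, TMM, robust quasi-likelihood, adjusted p of 0.05), checked on simulated data. Ratios used counts plus 0.5, and log2 differences were tested by permutation with numpy 2.4.6, exact over 24310 splits for density and with 100000 resamples for tissue and for correlations over 10 or more libraries. Correlations used log2 CPM. Alternatives were other scalings, filters and tools (DESeq2 1.42.0, limma-voom 3.58.1), sets of libraries and density labels, and leaving out each library. The text names the 3 hormone genes, genes of the related lists that passed the count filter, and the 5 genes most like each hormone in islets, of which some items are not reported here. LOXL4, PTGFR, MEIS2 and HHEX were named after their values were seen. The members and lists were chosen with earlier results of these data known. No sequences or coordinates are printed, since no genome or sequence table of the files' build was used.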

Additional observations from a re-analysis of the deposited data

Results flagged for a closer look

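Of 24 sets of values (6 measures in 4 groups), 7 had an extreme library set apart by a gap larger than Dixon's limit, each at the high end. The limit assumes normally distributed values, while these CPM and ratios were not log-transformed. The sets also share genes and libraries, so the number that chance would flag is not known. In Low pancreas, 15LS30 was flagged for GCG (1925 CPM, next 217.5), SST (90.7 CPM, next 38.0) and GCG to PPY (87.5, next 21.0). In the same group 14HS26 was flagged for SST to PPY, at 13.0 against 5.0 in the next library, with 6 SST and 0 PPY counts. In High pancreas, 15LS26 was flagged for GCG to SST (36.4, next 23.1). In High islets, 15AS28 was flagged for GCG to SST (164.6, next 24.2) and GCG to PPY (798.2, next 222.7). The 15LS30 pancreas also had the highest INS of any pancreas library (7803 CPM) and the highest level of the granule genes (4251 CPM, against 94.6 to 843.1 CPM in the other 16). The part of endocrine content in its values was not tested.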

How the results depend on the processing

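The islet excess of GCG, SST and PPY kept its direction and its call under all alternatives run, with the animal as a replicate block too (5.46, 4.70 and 3.37 in the pairing of tissues, with 6719 genes called, where the unblocked fit to the same animals called 7433). The block was fitted for the comparison of tissues alone. The density calls in pancreas change without the shallow libraries, which hold 1 to 7 SST and 0 to 6 PPY counts and are 7 of the 9 Low ones, so depth, acinar share and label cannot be told apart. For each change given here the cause was not tested. Where leaving libraries out is the alternative, fewer samples were fitted.

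For SST, High against Low pancreas, the call was lost at −0.91 (RLE scaling), −0.56 (no count filter), −0.68 (filter of 1 CPM), −0.81 (DESeq2), −0.91 (without genes above 5% of a library), −1.72 (without shallow libraries), −1.52 (leading digits of the animal code as covariate), −0.76 (animals labelled alike in pancreas and islets, here same-label animals), −1.09 (column totals), −0.61 (column-total permutation) and −0.32 (the same without 15LS30), and reversed to 0.59 with the islets' label. At −1.72, −1.52 and −1.09 SST was farther from 0 than in the main fit (−0.94). The −1.72 and −1.52 had an unadjusted p of 0.00261 and 0.00259 by edgeR, against 0.0191 in the main fit. In those fits 0 and 368 genes passed. PPY in pancreas reversed to 0.21 (no filter), 0.048 (1 CPM) and 0.0017 (DESeq2). GCG in pancreas reversed to −1.26 (without shallow libraries) and −0.24 (code covariate) and passed at 2.02 (same-label animals). It was 2.14 without 15LS30 on column totals, with an exact permutation p of 0.00171 that was not adjusted. In islets GCG reversed to −0.54 (pancreas label), −0.49 (that label without 12AS51), −0.34 (same-label animals), −0.083 (column totals) and −0.10 (permutation), and PPY to 0.28 (code covariate). In the interaction GCG was −2.03 (code covariate) and −3.47 (same-label animals), both passing, and 1.33 without shallow libraries. SST there was −0.12 (no filter) and −1.35 (same-label animals), and PPY 0.84 (limma-voom).

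Genes called between tissues rose to 15012 without a filter. In pancreas, 4283 became 10836 (no filter), 7587 (1 CPM), 0 (without shallow libraries, by edgeR), 368 (code covariate), 0 (islets' label, with 2311 at an unadjusted p under 0.05, 384 by DESeq2 and 8 by limma-voom), 2828 (same-label animals) and 2542 (column totals). The interaction count of 5718 became 8812 without a filter and 61 without shallow libraries.

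Ratios between tissues without shallow libraries were −0.10 (GCG to SST), 0.70 (GCG to PPY), −1.05, −0.95 and −1.75 (GCG, SST and PPY to granule genes). GCG to PPY missed the threshold at 1.87 without the islets whose source name reads pancreas and, adjusted over the 18 ratio tests, at 1.84 with the replicate block (adjusted p = 0.0888, against 0.0370 over the 6 within-animal measures). In pancreas, GCG to SST was 0.89 without shallow libraries and 1.75 by the islets' label, GCG to granule genes 0.32 and 0.93, and SST to PPY −0.61 by that label. The 0.89 and 0.32 come from 8 High and 2 Low libraries, with which no ratio could pass after adjustment. In islets, GCG to granule genes was 0.036 without those source names, and SST and PPY to granule genes were −1.23 and −1.53 by the pancreas label. Within animals, deep libraries gave −0.087 (GCG to SST) and 0.93 (GCG to PPY).

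Leaving out each library gave 0.32 to 1.97 (GCG), −1.10 to −0.55 (SST) and −0.90 to 0.14 (PPY, in the 13 fits where it passed the filter) in pancreas, −0.19 to 0.25 (GCG) in islets, and −2.15 to −0.34 (GCG) and −0.19 to 0.44 (SST) in the interaction. GCG to PPY gave 1.70 to 2.28 between tissues and 2.42 to 3.56 in pancreas, GCG to granule genes 0.97 to 1.41 in pancreas and −0.18 to 0.17 in islets, and SST to granule genes −1.23 to −0.81 in pancreas. Column totals without scaling factors, the permutation without 15LS30, the unblocked fit to paired animals the within-animal values from deep libraries and the values without 12AS51 by the pancreas label, between tissues of an animal and among islets of other codes were chosen after seeing the data.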
